A study of Brassica napus with 24 samples.

Results

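The genes described here are 150 genes of Brassica napus (oilseed rape) whose leaf transcripts were more abundant in plants held at 50% of field capacity (FC) than in their well-watered controls, and nearly level with controls in plants held at 25% FC. They were chosen from the measured values themselves. E is the log2 ratio of the mean CPM (pairs on the gene, scaled to the total of the library) under water deficit (WD) to the mean CPM of the controls, with 0.5 CPM added to both. A gene had to reach a mean of 1 CPM in some group, to have an E between -0.3 and 0.3 at the final harvest of the 25% FC plants, and to lie higher in every WD library than in every control library at the final harvest of the 50% FC plants. Of 101040 genes in the files, 51079 reached 1 CPM in some group and 913 met all the conditions, and the 150 with the highest E at the 50% FC final harvest were taken. So the WD against control differences of both final harvests chose the members and are described without a test, whereas the libraries labelled as the earlier harvests had no part in the choice beyond the 1 CPM minimum and were tested. These tests took each gene's spread from all 24 libraries, so the libraries of the final harvests entered them too. One of the libraries that chose the members, WD_t2_50 replicate 3, resembled an early one. The count called at t1_25 was lower when the genes were chosen without it.

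All plants were wild type of the cultivar Trezzor, grown in a greenhouse, and what was sequenced was polyA RNA of leaf blades that grew during the water shortage. All pots stood at 80% FC for 30 days after sowing. The controls then stayed at 80% FC, and irrigation of the WD plants was stopped until their pots were below 50% FC (harvest t1_50) and then at 25% FC (harvest t1_25). By the labels, WD plants held for 12 days at 50% FC gave harvest t2_50, and those held for 12 days at 25% FC gave harvest t2_25. The study's methods give a shorter hold at 25% FC, and a water content at the first harvest that is lower than the limit in the labels. Each harvest had 3 WD and 3 control libraries, which makes 8 groups and 24 libraries. From the label dates t2_50 was taken 48 days and t2_25 50 days after planting, so soil water and harvest day cannot be told apart between the final groups. The labels give the same date, 35 days after planting, for t1_50 and t1_25, although the study places the 25% FC harvest later. The study's methods describe replicates as pools of plants and do not describe the t2_50 plants, which are known here from the labels alone.

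When soil dries, leaves lose turgor, close their stomata, slow their growth and change the transcripts of many genes, partly through the hormone abscisic acid. How far this goes depends on how dry the soil becomes and for how long. B. napus arose from a cross between ancestors of turnip and cabbage and carries an A and a C subgenome, so most of its genes exist as several similar copies. The gene IDs used below name the subgenome and chromosome (BnaC03 lies on chromosome 3 of the C subgenome, and nn stands for an unplaced scaffold).

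The libraries held between 13263953 and 31112368 pairs on genes, so that 1 pair was worth 0.0321 to 0.0754 CPM. Of the 150 members, 149 passed the minimum for testing, and BnaA02g30810D did not. In all, 3 libraries stood apart from their groups. Their similarity is given as Pearson's r of log2(CPM + 0.5) across the 51079 genes, which share a library and are not replicates. WD_t2_50 replicate 3 had a mean r of 0.891 with its own group and 0.976 with WD_t1_25 replicate 1. The chi-square per gene between these libraries was 9.64, so their counts were not copies of each other. It was 5.14 for the most similar of the 276 pairs of libraries, and up to 71.2 within a group. Whether they share plants was not tested. Control_t1_25 replicates 1 and 3 had a mean r of 0.858 and 0.860 with their own group, replicate 1 was closest to WD_t1_50 replicate 1, and replicate 3 was closest to control_t2_25 replicate 1. Whether labels were exchanged was not tested, and the labels were kept. Results that rest on these libraries are given with and without them. The leaf label could be checked only on 5 annotated photosynthesis genes, whose summed level lay between 81.4 and 266 CPM. It was 81.4 to 154 CPM in WD_t2_50 and 181 to 221 CPM in control_t2_50, and its part in the results was not tested. No annotated seed storage or Casparian strip gene was found to look for other organs, and of 3 annotated MADS-box genes 2 were called higher in WD at t1_25, 2 higher and 1 lower at t2_25, and none at t1_50 or t2_50.

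At t2_50, the contrast that chose the members, their transcripts were 1.93-fold higher or more in WD, with a median of 2.71-fold. E ranged from 0.94 to 3.64 with a median of 1.19, while the median over all 51079 genes was -0.217. Every WD library lay above every control library for 5.32% of those genes. In the fit across all genes, 121 of the 149 tested members were called higher in WD at an adjusted p of 0.05 (edgeR's quasi-likelihood test), beside 2.97% of all genes tested. As these counts follow from the choice, nothing is read from them. The median member stood at 10.1, 10.5 and 8.98 CPM in the 3 WD_t2_50 libraries and at 3.09, 3.42 and 3.87 CPM in the 3 controls. WD_t2_50 replicate 3 was thus lower than the other WD libraries but well above the controls: the median E was 1.21 without this library and 1.12 from it alone. In bulk leaf tissue, fewer cells of a type and less RNA per cell cannot be told apart.

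**Figure D1:**
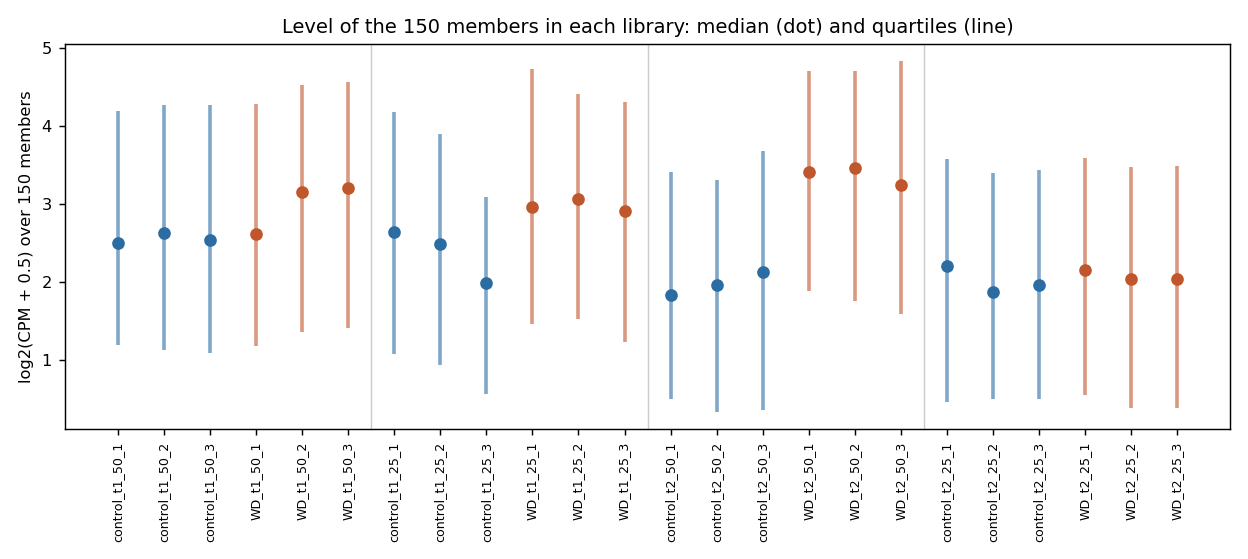
Level of the 150 members in each of the 24 libraries, as the median (dot) and quartiles (line) over members of log2(CPM + 0.5), with controls in blue and WD in orange. The 3 WD_t2_50 libraries stand above the 3 control_t2_50 libraries, the WD_t2_25 libraries lie among their controls, and the early WD libraries lie between these levels and those of WD_t2_50.

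The member with the highest E, BnaA01g28900D, has no annotation in the sources used here. Its level was 8.35, 12.4 and 7.43 CPM in WD_t2_50 and 0.142, 0.419 and 0.325 CPM in the controls, a 31.8-fold difference of means. No WD library came near the controls. It was also under 1 CPM in both groups of t2_25, where WD held 0.736, 0.668 and 0.354 CPM and the controls 0.643, 0.322 and 0.284 CPM. At t1_50, however, its WD libraries reached 3.12, 14.9 and 21.7 CPM, so its highest values belonged to the first harvest.

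The next members differed in how evenly the 3 WD_t2_50 libraries shared the difference from controls. BnaA09g10050D held 6.38, 9.23 and 0.416 CPM in WD_t2_50 and at most 0.349 CPM in the controls, so replicate 3 cleared the highest control by only 0.0675 CPM. BnaC08g35480D held 7.16, 10.9 and 3.15 CPM in WD_t2_50 and 0.569, 0.349 and 1.08 CPM in its controls. In both genes replicate 3 was the lowest WD library. BnaC02g03340D held 27.4, 25.3 and 13.4 CPM in WD_t2_50, while its controls were at 2.7, 3.7 and 5.47 CPM. At t2_25 the same gene stood at 7.36, 7.10 and 7.49 CPM in WD and at 9.71, 7.02 and 9.09 CPM in the controls, above the t2_50 controls. BnaA02g30810D entered the list through 1 library: it held 72 pairs in WD_t2_50 replicate 1, 5 and 6 in the others, and 1 pair in each control.

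BnaC09g07260D carries the LOB domain of a plant transcription factor family whose founding member acts at organ boundaries in Arabidopsis. It went the other way among the WD_t2_50 libraries, with 5.61 and 4.2 CPM in replicates 1 and 2 and 22.8 CPM in replicate 3. Its controls were close together at 1.64, 1.88 and 1.84 CPM. The level was far higher at t1_50, where the controls held 21.3, 28.3 and 28.2 CPM and the WD libraries 39.2, 48.2 and 42.4 CPM. BnaC03g18820D encodes a dormancy/auxin associated protein, of a family whose transcripts are known to be abundant in resting buds of pea and Arabidopsis. It held 382, 300 and 104 CPM in WD_t2_50 and 68.4, 50.5 and 39.9 CPM in the controls, a 4.95-fold difference of means.

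**Figure D2:**
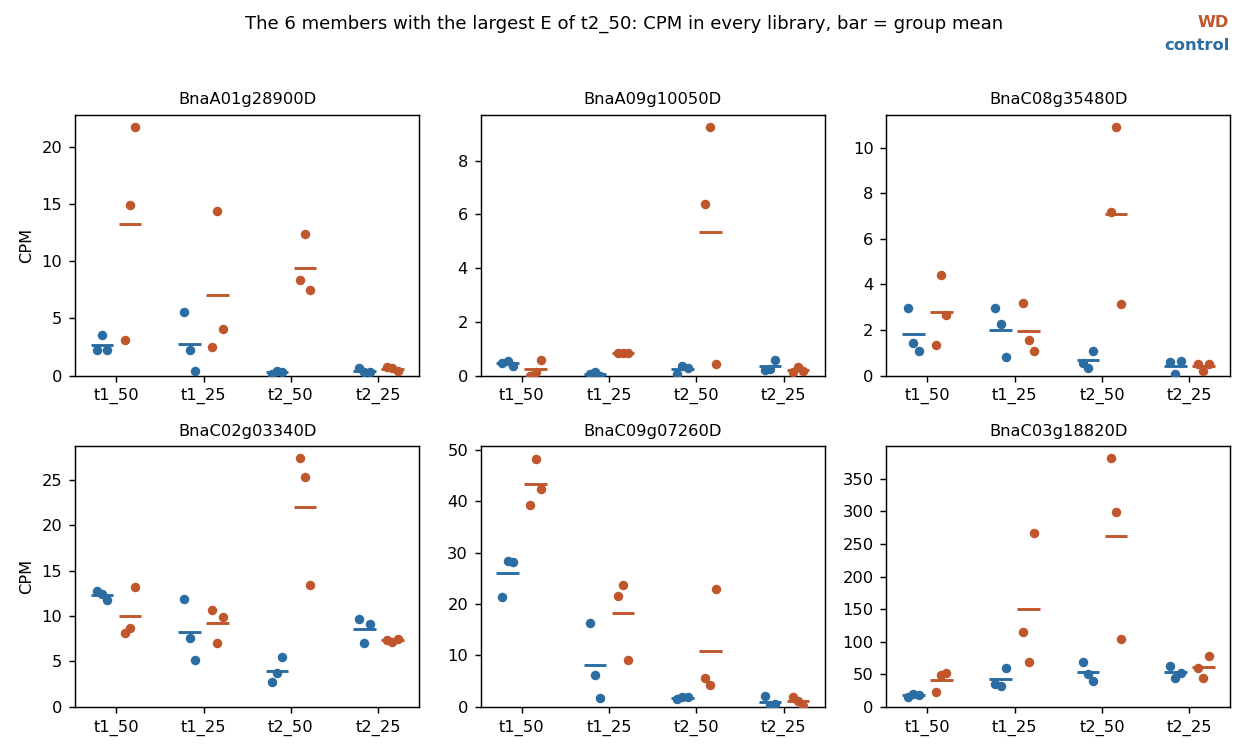
CPM of the 6 members with the highest E at t2_50 in every library (points) with the group mean (bar), by harvest, controls in blue and WD in orange. At t2_50 no WD point lies as low as a control point, and BnaA01g28900D and BnaC09g07260D have their highest points at t1_50.

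Of the remaining members among the 10 highest, BnaC02g16720D held 4.14, 7.99 and 10.6 CPM in WD_t2_50 and 2.20, 0.837 and 0.867 CPM in the controls. BnaC02g42730D held 14.7, 12.1 and 4.64 CPM against 2.49, 1.19 and 2.22 CPM. For BnaC09g05370D a single library stood out, with 2.52, 10.8 and 3.98 CPM in WD and 1.35, 1.19 and 0.379 CPM in the controls. Over all members the library with the highest of the 3 WD values was replicate 1 for 54, replicate 2 for 51 and replicate 3 for 45. In 6 members no control_t2_50 library held more than 3 pairs, so that a few pairs set the control value. A mean under 5 CPM in WD_t2_50 was found in 46 members. At the other end, 13 members reached a mean of 100 CPM or more there.

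The 5 members with the highest mean CPM over the 24 libraries (not corrected for transcript length) showed smaller and more even differences. BnaCnng52390D held 520, 688 and 538 CPM in WD_t2_50 and 196, 182 and 240 CPM in the controls. In BnaC07g29330D the WD_t2_50 libraries lay at 414, 419 and 357 CPM and the controls at 150, 173 and 208 CPM. In neither gene did a single WD library stand apart. BnaA06g27710D stood at 470, 383 and 296 CPM against 137, 147 and 194 CPM. BnaA01g11190D stood at 390, 292 and 398 CPM against 147, 185 and 215 CPM, but was higher still in the t1_50 controls, with 535, 499 and 592 CPM. BnaA08g24920D held 375, 301 and 313 CPM against 165, 118 and 226 CPM. None of the 5 carries an annotation in the sources used here.

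At t2_25 the rule kept the members within 0.3 of 0, and their E had a median of 0.03, with 78 members above 0 and 72 below. The median over all 51079 genes was -0.319, below the lower limit of the rule, so nothing is read from the difference. The level of the members against their controls depends on the scaling. TMM normalization, which aligns the bulk of genes between libraries, shifted log2 of WD over control by 0.25 at t2_50 and 0.33 at t2_25, and by -0.04 and 0.01 at t1_50 and t1_25. With TMM the members' median E at t2_25 was 0.28, and 136 of the 150 were above 0. After that shift only 78 members still lay within 0.3 of 0. In the fit, which uses TMM, 1 of 149 members was called higher in WD_t2_25, BnaC02g02930D, while 8.76% of all genes tested were called higher in that contrast. As the rule kept E near 0 here, nothing is read from this count. The median fitted log2 fold change of the members was 0.35 there. Thus the rule's level with the controls at t2_25 holds in CPM, while with TMM most members stood slightly above them.

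**Figure D3:**
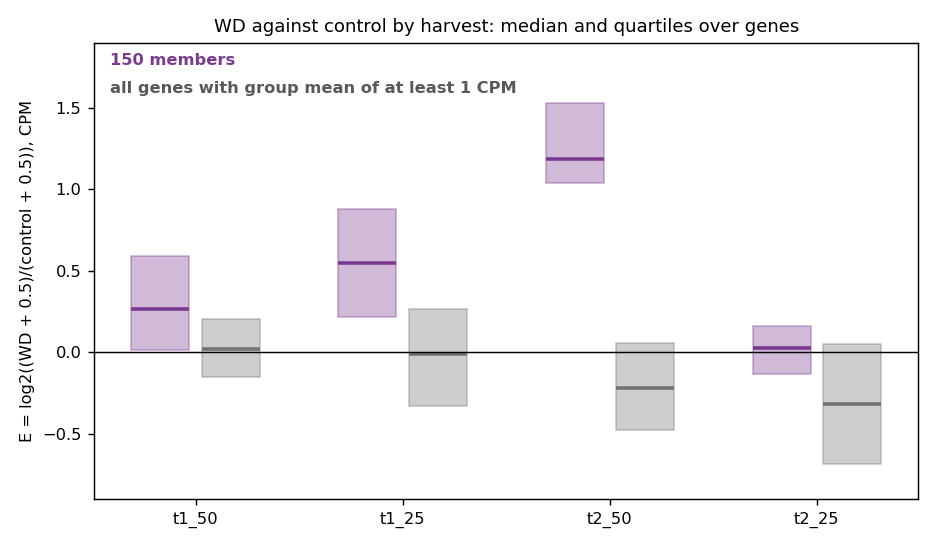
Log2 ratio E of WD to control by harvest, as the median (line) and quartiles (box) over the 150 members (purple) and over all 51079 genes with a group mean of at least 1 CPM (grey). The members' median was 0.26 at t1_50, 0.55 at t1_25, 1.19 at t2_50 and 0.03 at t2_25, and the last 2 of these harvests chose them.

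Between the final WD groups the members differed strongly, which follows from the choice. The median member had a mean of 9.40 CPM in WD_t2_50 and 3.81 CPM in WD_t2_25, and 149 of 150 were lower in WD_t2_25, by a median of -1.19 in log2. The controls of these harvests had similar medians over the members, 3.84 CPM in control_t2_50 and 3.65 CPM in control_t2_25. For single members the log2 difference of control_t2_25 from control_t2_50 ranged from -0.81 to 1.69. Of the members, 125 lay higher in every WD_t2_50 library than in every control_t2_25 library as well. On the other hand, 126 members had a lower mean in control_t2_50 than over the other controls, with a median difference of -0.34 in log2, against 0.04 over all genes.

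This difference lay largely with the early controls. The median log2 ratio of the members to their control_t1_50 level was -0.57 in control_t2_50 and -0.56 in control_t2_25, where the typical gene was higher (0.19 and 0.22). In WD plants held at 50% FC the members stood at or above their early WD level: the median log2 ratio of WD_t2_50 to WD_t1_50 was 0.39, with 111 members higher. In WD plants held at 25% FC it was -0.72, with 122 members lower. Hence in the well-watered leaves and in those at 25% FC the final level of most members was below the early level, and in those at 50% FC it was not. These ratios involve the libraries that chose the members and carry no test.

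How far the controls set the difference varied among members. It was most marked in BnaC09g07260D, whose control_t2_50 mean was lower than that of the other controls by a log2 difference of -2.42, followed by BnaA03g35730D (-1.95), BnaC06g27540D (-1.65), BnaA01g28900D (-1.61) and BnaA01g22550D (-1.59). BnaA03g35730D held 42.5, 41.2 and 34.1 CPM in control_t1_50, but 2.56, 5.51 and 5.53 CPM in control_t2_50 and 10.7, 12.2 and 13 CPM in WD_t2_50, so its WD value at t2_50 was itself well below the early level. BnaC06g27540D held 4.98, 10.1 and 2.022 CPM in WD_t2_50, and replicate 3 was barely above the highest control of 2.005 CPM. At the other end the t2_50 controls were higher than the other controls for BnaA08g14100D (0.79), BnaC03g18820D (0.48), BnaC08g49610D (0.46), BnaA01g37100D (0.44) and BnaA06g25210D (0.38). BnaA01g37100D held 12.1, 13.7 and 5.17 CPM in WD_t2_50 and 1.78, 1.88 and 2.60 CPM in its controls, and at most 0.640 CPM in any library of t1_50.

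A high level in WD was not restricted to t2_50. The group with the highest mean was WD_t2_50 for 88 members, WD_t1_25 for 27, WD_t1_50 for 22, control_t1_50 for 12 and WD_t2_25 for 1. Every WD_t2_50 library lay above all 12 control libraries for 63 members and above all 21 other libraries for 13. For the remaining members some library of another group reached the range of WD_t2_50.

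The first deficit harvests tested whether the members also responded while the soil was drying. At t1_25 the members were higher in WD: 30 of 149 rose and none fell at an adjusted p of 0.05 (edgeR's quasi-likelihood test), which is 20.1% of the members, beside 3.6% of all genes tested called higher and 7.72% called lower. Without adjustment 59 members passed a p of 0.05 upward and none downward, beside 9.86% and 15.3% of all genes tested. The median log2 fold change of the members was 0.64 and 130 were above 0. Over all 54835 genes tested the median was -0.0014, and 49.85% were above 0. All 3 WD libraries lay above all 3 controls for 47 of the 150 members, beside 9.93% of all genes, and all 3 lay below for none.

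This result changed when the genes were chosen without WD_t2_50 replicate 3, the library of the choice that was most like WD_t1_25. When the 150 genes were chosen without it, 5 of the 142 tested were called higher at t1_25 and 1 lower, or 3.52% higher beside the 3.6% of all genes, and their median log2 fold change was 0.16. All 5 were among the 43 members that this choice kept, of which 42 were tested. These 5 are 11.9% of them, with a median log2 fold change of 0.70, beside 23.4% and 0.62 in the 107 members not kept. None of the 100 tested genes new to the list was called higher. Before the limit on rank, 185 of the 2151 tested genes that met the conditions without replicate 3 were called higher (8.60%). Of the genes that met the conditions with all 3 WD_t2_50 libraries, 177 of 912 tested (19.4%) were called higher at t1_25. Of those that met them only when replicate 3 was left out, 9 of 1242 were (0.725%), and 7 were called lower. So the higher level of the members at t1_25 went with the demand that replicate 3 lie above the controls. Whether leaving out another WD_t2_50 library from the choice would lower the share called in the same way was not tested. The contrast therefore does not show a role particular to replicate 3. The test at t1_25 is not independent of the choice if replicate 3 belongs with that harvest. It also shares its estimate of the spread with the libraries that chose the members. This holds for each gene reported below as higher at t1_25.

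The count at t1_25 also depended on the controls that stood apart, and the share of all genes called moved with it. It was 12 without control_t1_25 replicate 3 (8.05% of the members, beside 547 of 54665 genes called higher), 47 without replicate 1 (31.5% beside 5.38%) and 19 without replicate 2 (12.8% beside 2.30%). Without control_t1_25 replicates 1 and 3 and WD_t2_50 replicate 3 together in the fit it was 15, and leaving out WD_t1_25 replicate 3 also gave 15 (beside 1.03% and 1.34% of all genes). Fitted on the 6 libraries of t1_25 alone, no member passed, and 1 gene of the whole table did, which was lower in WD. In that fit 54 of 143 members passed an unadjusted p of 0.05 upward, beside 3257 of 50382 genes. Most members were higher against each control taken alone: the mean of WD_t1_25 exceeded control replicate 1 in 104 members, replicate 2 in 124 and replicate 3 in 140, with median log2 ratios of 0.28, 0.53 and 1.01. The median member stood at 7.33, 7.86 and 7.07 CPM in the WD_t1_25 libraries and at 5.79, 5.12 and 3.49 CPM in the controls. Of the 30 members, 10 stayed called in each of the 6 fits that left out 1 library of t1_25.

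**Figure D4:**
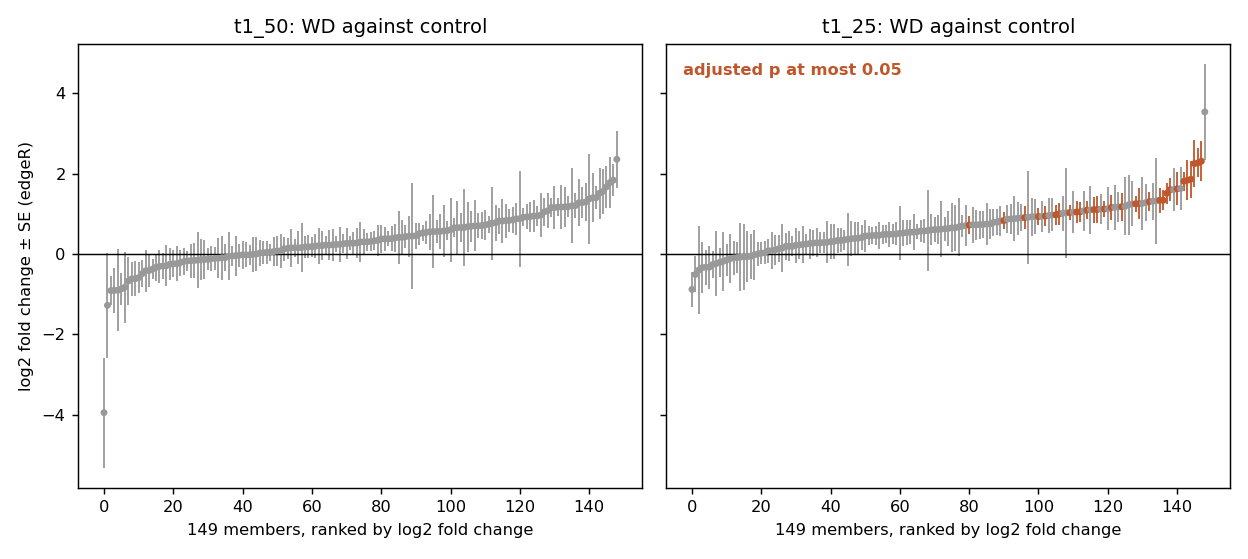
Log2 fold change of WD against control with its standard error for the 149 members tested, ranked within each panel, at t1_50 (left) and t1_25 (right), from 3 libraries per group in a fit of all 24. The 30 members called at t1_25 are in orange and all lie above 0, and none was called at t1_50.

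BnaA06g25320D had the smallest p at t1_25. It encodes a protein with a basic helix-loop-helix domain, the DNA-binding domain of a large family of plant transcription factors. The WD_t1_25 libraries held 17, 12.6 and 19.9 CPM and the controls 5.82, 3.18 and 5.33 CPM, without overlap. Its log2 fold change was 1.81 ± 0.24 (SE, n = 3 per group, adjusted p = 0.000677 by edgeR). At t2_50 the groups were as far apart, with 23.4, 21.1 and 20.4 CPM in WD and 5.90, 5.23 and 6.01 CPM in the controls.

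Another 4 members followed in the same test. BnaC03g45960D rose by a log2 fold change of 2.27 ± 0.36 (SE, n = 3 per group, adjusted p = 0.00208 by edgeR), from 1.47, 2.12 and 2.21 CPM in the controls to 6.28, 6.63 and 15.3 CPM in WD_t1_25. WD_t1_25 replicate 3 was the highest library in this gene. BnaA03g08720D rose by 1.25 ± 0.20 in log2 (SE, n = 3, adjusted p = 0.00233 by edgeR), from 9.14, 6.85 and 6.07 CPM to 17.5, 19.5 and 15.0 CPM. BnaC03g73280D rose by 1.51 ± 0.26 (SE, n = 3, adjusted p = 0.00271 by edgeR), from 30.8, 38.6 and 42.2 CPM to 76.5, 77.6 and 160 CPM. In both genes the groups did not overlap, and in BnaC03g73280D WD_t1_25 replicate 3 was again the highest library. BnaC03g21300D rose by 1.30 ± 0.23 (SE, n = 3, adjusted p = 0.00291 by edgeR), from 14, 22.5 and 24.0 CPM to 54.7, 38.1 and 53.7 CPM. The sources used here give no function for these 4 genes.

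**Figure D5:**
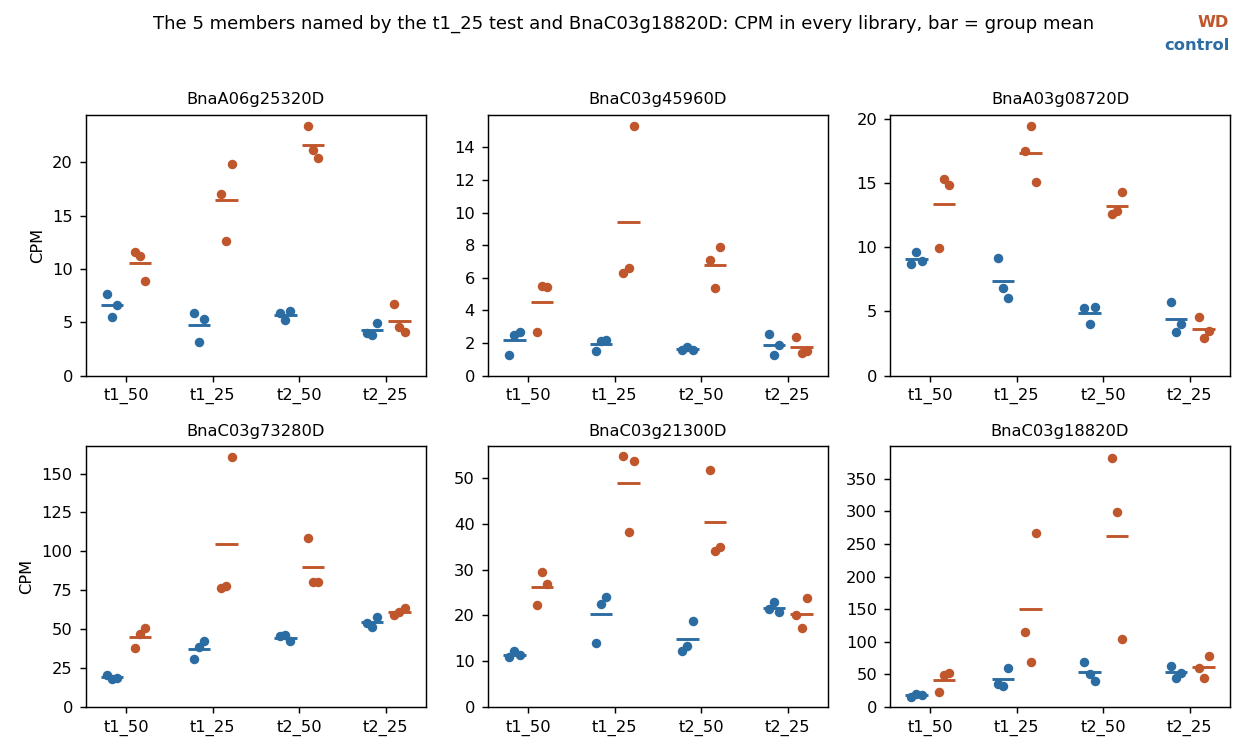
CPM in every library (points) with the group mean (bar) of the 5 members with the smallest p at t1_25 and of BnaC03g18820D, by harvest, controls in blue and WD in orange. WD points lie above control points at t1_25 and t2_50 in each panel, and the groups meet or overlap at t2_25 except in BnaC03g73280D, whose WD values of 59.3, 60.8 and 63.8 CPM lie just above its controls of 53.8, 51.3 and 57.8 CPM.

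At t1_50, with soil below 50% FC by the labels, no member passed the test (edgeR's quasi-likelihood test), where 0.0419% of all genes were called higher. Without adjustment 34 members passed a p of 0.05 upward and 3 downward, beside 3.54% and 3.79% of all genes. The likelihood ratio test and DESeq2 each called 5 members higher (3.36%, beside 0.17% and 0.204% of all genes). The 6 libraries of t1_50 fitted alone gave 10 of 136 (7.35%, beside 0.552%). The median log2 fold change of the members was 0.30, with 104 above 0, beside 49.44% of all genes. It was 0.18 without WD_t1_50 replicate 3, and -0.10 over the 142 tested genes of the list chosen without WD_t2_50 replicate 3, none of which was called. All WD libraries lay above all controls for 46 members, beside 10.7% of all genes, and below for 5, beside 8.74%. BnaC03g25150D, picked as the member closest to the threshold, had a log2 fold change of 1.17 ± 0.23 (SE, n = 3, adjusted p = 0.0785 by edgeR), and held 12.7, 19.9 and 22.5 CPM in WD_t1_50 and 7.85, 8.29 and 7.37 CPM in the controls. The median member was at 5.63, 8.47 and 8.78 CPM in WD_t1_50, replicate 1 being close to the controls at 5.20, 5.73 and 5.33 CPM.

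The WD response was not shown to differ between t1_25 and t1_50. The interaction called none of the members and none of the genes tested (edgeR's quasi-likelihood test). Without adjustment 15 members passed a p of 0.05 upward and none downward, beside 3.58% and 6.65% of all genes. The likelihood ratio test and DESeq2 called no member either, but 1.28% and 1.41% of all genes. Without control_t1_25 replicate 1 the quasi-likelihood test called 4 members (2.68%), all higher, and 4.51% of all genes, most of them lower. Between the WD groups themselves, WD_t1_25 against WD_t1_50, no member was called in either direction, beside 0.494% of all genes. Here 21 members passed an unadjusted p of 0.05 upward and 12 downward, beside 7.11% and 5.09% of all genes. The likelihood ratio test and DESeq2 called 8 (7 of them higher) and 9 (8 of them higher), or 5.37% and 6.04%, beside 2.51% and 2.89% of all genes. The median log2 fold change between the WD groups was -0.04, and its sign changed with the libraries used (0.05 without WD_t1_50 replicate 3, -0.22 without replicate 1).

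Between the controls of these harvests, 8 members fell and 1 rose from t1_50 to t1_25, while 2.86% of all genes fell and 8.1% rose. The median log2 fold change was -0.35, with 108 members below 0, while 51.15% of all genes were above 0. This median was -0.18 without control_t1_25 replicate 3 and -0.58 without replicate 1. The member that rose, BnaA01g37100D, had a log2 fold change of 3.47 ± 0.79 (SE, n = 3, adjusted p = 0.0126 by edgeR). Those that fell included BnaA03g35730D, with -1.71 ± 0.41 (SE, n = 3, adjusted p = 0.0150 by edgeR), and BnaA01g11190D, with -0.93 ± 0.25 (SE, n = 3, adjusted p = 0.0254 by edgeR). None of the 9 was called without control_t1_25 replicate 3, where 0.0311% of all genes were called. Without replicate 1, 42 members were called (28.2%), 37 of them lower, beside 21.7% of all genes. Without replicate 1, 2 or 3 of control_t1_50 the counts were 1, 0 and 0, beside 7.14%, 0.0055% and 0.0037% of all genes.

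Functions could be given for few members. A gene annotation from the study's supplementary material, which lists genes the study had already called in these libraries and is held here only in part, covers 15 members, 2 of them without a description. Their response is therefore not independent of the listing. Besides the LOB domain gene and the bHLH gene, none of the lists of transcription factor families (WRKY, Myb, AP2/ERF, NAC, bZIP) held a member. None of 114 ion transporter genes of the study was a member, nor was any of the 26 heat shock genes of the annotation. These lists are short beside all the genes that could have been chosen, and nothing is read from their lack of members.

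BnaC05g21780D encodes a second dormancy/auxin associated protein. It held 36.6, 16 and 27.1 CPM in WD_t2_50 and 8.31, 11.8 and 10.1 CPM in the controls, and at t1_25 it rose by a log2 fold change of 1.62 ± 0.41 (SE, n = 3, adjusted p = 0.0175 by edgeR). The first of the pair, BnaC03g18820D, rose by 1.84 ± 0.49 at t1_25 (SE, n = 3, adjusted p = 0.0231 by edgeR), from 35.8, 31.9 and 59.6 CPM to 116, 68.7 and 267 CPM. With 1 library of t1_25 left out, the call held in 2 of 6 fits for BnaC05g21780D and 3 of 6 for BnaC03g18820D. The family was looked at after these values were seen: of its 10 annotated genes 9 rose and none fell at t1_25, and 7 were higher in every WD_t2_50 library than in every control, beside 3.6% and 5.32% of all genes. These 10 come from the list of genes the study had already called, so nothing is read from the counts. Some of its other genes lay outside the limits at t2_25, such as BnaA02g20750D with an E of 2.25 and BnaA05g09830D with -0.38. BnaA10g12930D combines a response regulator receiver with a CCT domain, a pairing found in the pseudo-response regulators of the Arabidopsis circadian clock. It held 13.3, 17.5 and 12.4 CPM in WD_t2_50 and 6.18, 7.18 and 7.96 CPM in its controls, and rose at t1_25 by 0.83 ± 0.21 (SE, n = 3, adjusted p = 0.0169 by edgeR). Its call held in 4 of the 6 fits with 1 library of t1_25 left out. The hour of sampling is not given in the sources used here.

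BnaA08g14100D and BnaA01g16450D share a domain of unknown function, DUF3700. BnaA08g14100D held 33.1, 31.9 and 24.1 CPM in WD_t2_50 and 11.2, 5.93 and 5.31 CPM in the controls. At t1_25 its WD libraries held 13.5, 13.2 and 35.8 CPM and the controls 3.61, 2.40 and 6.68 CPM, a log2 fold change of 2.31 ± 0.49 (SE, n = 3, adjusted p = 0.00722 by edgeR). BnaA01g16450D rose there by 1.05 ± 0.25 (SE, n = 3, adjusted p = 0.0126 by edgeR), from 8.26, 6.07 and 7.42 CPM to 10.6, 16.7 and 19.0 CPM. With 1 library of t1_25 left out, the call held in 5 of 6 fits for BnaA08g14100D and 3 of 6 for BnaA01g16450D. At t1_50 these genes gave 1.67 ± 0.52 and 0.14 ± 0.25, neither of which passed the test. Of 7 annotated genes with this domain, 3 rose at t1_25, beside 3.6% of all genes tested. The other was BnaC08g12490D, whose E of 0.78 at t2_25 kept it out of the list. These 7 were looked at after the values were seen and come from genes the study had already called, so nothing is read from the count.

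Other annotated members include enzymes and a redox protein. BnaC08g49610D, with the PEP/pyruvate-binding domain of pyruvate phosphate dikinase, held 17.2, 35.3 and 20.2 CPM in WD_t2_50 and 9.81, 7.74 and 13.3 CPM in the controls. BnaA06g25210D, a cytochrome P450, of the oxidases that modify many plant hormones and secondary compounds, held 10.2, 10.4 and 7.43 CPM against 5.54, 3.56 and 3.74 CPM. BnaA01g07280D, a thioredoxin, a small protein that reduces disulfide bonds, held 23.7, 28.4 and 13 CPM against 8.39, 9.63 and 10.2 CPM. All 3 rose at t1_25, by log2 fold changes of 1.18, 1.6 and 0.95 with adjusted p = 0.0378, 0.00315 and 0.0207 by edgeR. Their calls held in 2, 6 and 2 of the 6 fits with 1 library of t1_25 left out. BnaC02g02930D, a pentatricopeptide repeat protein, of a family that mostly binds RNA of chloroplasts and mitochondria, rose at t1_25 too, by 1.12 ± 0.20 (SE, n = 3, adjusted p = 0.00312 by edgeR). It held 11.2, 14 and 11.2 CPM in WD_t2_50 and 5.19, 6.84 and 5.58 CPM in the controls. BnaC04g52160D, listed without a description, held 15.3, 15.4 and 16.1 CPM against 7.68, 7.67 and 7.21 CPM, and rose at t1_25 by 1.34 ± 0.25 (SE, n = 3, adjusted p = 0.00373 by edgeR).

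Of the annotated members, 3 were not called at t1_25. For the LOB domain gene BnaC09g07260D the log2 fold change was 1.26 ± 0.67 (SE, n = 3, adjusted p = 0.255 by edgeR). BnaA01g22550D, with the C-terminal domain of replication factor A, which binds single-stranded DNA, gave 0.58 ± 1.0 (SE, n = 3, adjusted p = 0.784 by edgeR). Its libraries scattered widely at low levels, with 0.421, 1.06 and 4.04 CPM in WD_t2_50 and 0.284, 0.140 and 0.271 CPM in the controls, and at t1_50 its fitted log2 fold change was -3.95 ± 1.37 (SE, n = 3, adjusted p = 0.469 by edgeR). BnaA06g14550D, a protein kinase with a lectin-like domain, gave 0.73 ± 0.34 at t1_25 (SE, n = 3, adjusted p = 0.18 by edgeR). With 2.17, 2.54 and 2.97 CPM in WD_t2_50 and 1.21, 0.837 and 1.25 CPM in the controls it was the last member of the list.

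The border of the list was not marked by a step in the values. The last 3 members, BnaA04g18980D, BnaC02g40810D and BnaA06g14550D, each had an E at t2_50 of 0.94, and the next 3 genes, BnaC05g39600D, BnaC03g48470D and BnaC09g13610D, had 0.94, 0.94 and 0.93. BnaC01g03860D lay just inside the other limit, with an E of 0.29 at t2_25, and BnaAnng09190D just outside, with 0.31. Of 782 genes that were as high as the last member at t2_50 without overlap, 507 were above 0.3 at t2_25 and 125 below -0.3, so the members are the smaller share of the genes higher under WD at t2_50. Membership also rested on WD_t2_50 replicate 3: without it 2164 genes passed before the limit on rank in place of 913, 149 of the 150 members still did, and 43 of them remained among the top 150, since the last gene then had an E of 1.54.

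The members were spread over both subgenomes, with 71 on A and 79 on C, or 47.3% and 52.7%, beside 48.4% and 51.4% of all 51079 genes. Chromosomes A01, C02 and C03 held 13 members each (8.67%, beside 4.14%, 3.91% and 7.67% of the 51079 genes kept), and A05 held 1 (beside 4.24%). The list held 3 pairs of neighbouring gene IDs, BnaC02g06370D with BnaC02g06380D, BnaC03g11230D with BnaC03g11240D and BnaC08g49660D with BnaC08g49670D. In BnaC03g11230D the 3 WD_t2_50 libraries held 21, 18 and 10 pairs and the controls none. In its neighbour BnaC03g11240D they held 17, 23 and 5 pairs, and the controls 0, 1 and 0. So both were near the limit of detection in control_t2_50, and no fold is given. In other controls they were not always so low, and their libraries varied together. BnaC03g11230D held 0, 18 and 25 pairs in control_t2_25, 10, 19 and 0 in control_t1_25, and 0, 6 and 13 in control_t1_50. BnaC03g11240D held 1, 26 and 26 pairs in control_t2_25, 10, 20 and 0 in control_t1_25, and 0, 7 and 18 in control_t1_50. Pairs that match several copies were counted on no gene, which leaves similar copies underestimated. Such pairs made up 7.77% to 9.45% of each library. In BnaC05g18440D the opposite strand, which was not used for the values above, held 52.0% of all pairs at the gene, and in 7 members, this one included, it held more than 5%.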

How the data were processed

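Per the labels and the study's methods, the authors trimmed paired stranded reads, removed rRNA, mapped the pairs with STAR and deposited the raw count of pairs per annotated gene, without normalization or filter. The counts of the reverse strand were used, since the opposite strand held 0.301% to 0.479% of the pairs. Between 15.8% and 19.3% of the pairs were assigned to no gene, those that match several copies included, and were left out. CPM was computed on the pairs counted on genes. Differential expression was tested with edgeR 4.0.16 (limma 3.58.1, R 4.3.3): 1 model of all 24 libraries with 8 groups and a block for the replicate number, which the study's model also has, on the 54835 genes that reached 0.6 CPM in 3 or more libraries, TMM normalization, the quasi-likelihood test and Benjamini-Hochberg adjustment over all genes (threshold 0.05). Standard errors were computed back from the F statistic. P-values measure the spread between libraries, and counting limits (3 pairs) cover counting error only. Tables and plots were made with pandas 2.3.3, numpy 2.4.6 and matplotlib 3.10.9 in Python 3.11.15, and the fit was tested on simulated data.

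The members and the gene lists were chosen with earlier results of these data known. The genes named are the 10 members with the highest E at t2_50, the 5 with the highest mean CPM, up to 5 members called per early harvest and direction by smallest p, the annotated members, 3 genes on each side of the limit on rank, and the 5 with the largest and the 5 with the smallest difference between the t2_50 and other controls. Other genes were named after their values were seen. The alternatives were no replicate block, the likelihood ratio test, DESeq2 1.42.0, its size factors in edgeR, no filter, both strands, each harvest fitted alone, each library left out, and other settings of the rule. Leaving out 3 libraries together, the list chosen without WD_t2_50 replicate 3, the alternatives for the median fold changes and TMM for the median E at t2_25 were chosen after seeing the data. The replicate numbers come from the sample titles. Of 12 WD and control pairs with the same number, 6 had a correlation of deviations over 0.1. The 12 values ranged from -0.03 to 0.49 with a mean of 0.17, against a mean of -0.08 for pairs of unlike number. Being uneven, they do not show that the numbers pair the plants. Gene sequences and promoters of the annotation used by the authors were not used here. Of the IDs, 3347 matched a RefSeq symbol, 8 of them members, without a function.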

Additional observations from a re-analysis of the deposited data

Results flagged for a closer look

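The strand opposite to the annotated genes had no part in the comparisons. In 4 members all WD libraries of a harvest held more than 3 pairs on this strand and lay above all controls of that harvest in CPM. Members with fewer pairs were not considered. BnaC05g18440D had a mean of 1.42 CPM there in WD_t1_25, BnaC07g29330D 0.606 CPM in WD_t1_25, BnaC06g36220D 0.375 CPM in WD_t2_25 and BnaA03g32350D 0.36 CPM in WD_t1_25. The 150 members were each looked at in 4 harvests, and these differences were not tested.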

How the results depend on the processing

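Counts of called members are given as the values under each alternative. At t1_25 (30 called) the count was 0 with the harvest fitted alone, 12 to 47 when each library was left out in turn, and 15 without WD_t2_50 replicate 3 and control_t1_25 replicates 1 and 3 together. It was 6 (5 higher, 1 lower) for the list chosen with WD_t2_50 replicate 3 left out. With no replicate block it was 31, with 30 shared. At t1_50 (0 called) it was 5 by the likelihood ratio test, 5 by DESeq2 and 10 fitted alone. It was 3 without the same 3 libraries (2.01%, beside 0.128% of all genes) and 0 with any library of that harvest left out. The interaction (0 called) ranged from 0 to 4. For WD_t1_25 against WD_t1_50 (0 called) it was 2 with no replicate block, 8 by the likelihood ratio test, 9 by DESeq2 and 0 to 2 with libraries left out. For the controls of these harvests (9 called) it was 15, 16 and 0 by the likelihood ratio test, DESeq2 and fitted alone, and 0 to 42 with libraries left out. By the likelihood ratio test and DESeq2 this was 10.1% and 10.7% of the members, beside 14.3% and 14.85% of all genes. At t2_50 (121 called) it was 38 fitted alone (27.3%, beside 2.37% of all genes) and 42 to 112 with libraries left out. At t2_25 (1 called) it was 0 with no filter on low counts and 0 to 2 with libraries left out. Fitted alone it was 12 (9.68%, beside 31.5% of all genes). The rule used both final harvests, so nothing is read from their counts. The replicate block moved no other count by over 1.5 times. Of the 150 members, 84 remained with a limit of 0.5 on E at t2_25, 76 with TMM-normalized CPM, 95 with the median CPM, and 43 (without WD_t2_50 replicate 3) to 125 with a library left out. The median log2 fold change of the members for WD_t1_25 against WD_t1_50 (-0.04) changed sign with no replicate block (0.0057) and without WD_t1_25 replicate 3 (0.042), WD_t1_50 replicate 2 (0.025) or WD_t1_50 replicate 3 (0.0525), and ranged from -0.218 to 0.0525 with each library left out. The 5 genes with the smallest p at t1_25 and the E of the 10 highest members at t2_50 kept their sign under the alternatives run. The cause of these shifts was not tested. With 3 libraries per group and many members under 5 CPM, small differences were not detectable at this depth.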
